A study of Mus musculus with 4 samples.

Results

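The type I interferon response genes followed here are 34 genes named by symbol and read in every library and cell class of a single-cell study of mouse lung tumours. Of the 34 names, 33 were found among the 31053 genes of the deposited feature table, and Mx2 was found neither by symbol nor by identifier and is not analysed here. The list was drawn up by function, not by a measured value. Results are ordered by what the genes' products do: the ubiquitin-like modifier Isg15 with its protease and ligase (Usp18, Herc6), the Ifit RNA-binding proteins, the oligoadenylate synthetase (OAS) family, other antiviral enzymes and GTPases (Rsad2, Cmpk2, Mx1, Isg20, Trim30a, Parp14), nucleic acid sensors (Ddx58, which encodes RIG-I, Ifih1, which encodes MDA5, Dhx58, Zbp1, Ifi204), transcription factors (Stat2, Irf9, Irf7) and membrane proteins (Ifitm3, Bst2, Ifi27l2a).

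Tumours were grown in the lungs of B6 mice from KP cells, a mouse lung cancer line, given by vein. The tumour cells were either wild type (WT) or knocked out (KO) for Asf1a, a histone chaperone, and the host cells carried no knockout. Mice received isotype IgG or the anti-PD-1 antibody 29F.1A12, which blocks an inhibitory receptor of T cells, with the antibody dosed at 200 µg per mouse, 3 times per week, for 1 week. The 4 groups are named by tumour genotype and antibody, and values of the 4 libraries are always given with the WT pair first (WT IgG, then WT anti-PD-1) and the KO pair after it (KO IgG, then KO anti-PD-1). Each group is 1 library of whole digested lung, sorted for live cells only, and the sources used here do not say how many mice or knockout clones stand behind a library. With 1 library per group no difference between groups can be tested, and every interval below covers counting error only.

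Type I interferons bind a receptor made of Ifnar1 and Ifnar2, which acts through the kinases Jak1 and Tyk2. A complex that holds Stat2 and Irf9 then binds interferon-stimulated response elements (ISREs) in the promoters of target genes. Interferon gamma, a product of activated lymphocytes, acts through a different promoter element (GAS), and many genes answer both. In lungs and tumours the response is known in nearly all cell types, and its targets restrict viruses, sense nucleic acids and shape antigen presentation.

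Promoter windows (250 bases before to 50 bases after the annotated start) were present in the RefSeq table, build GRCm38.p6, for 24 of the 34 members. An ISRE-type core, which here means a pair of GAAA words separated by 2 bases of any kind and is read on both strands, occurred in 13 of these 24 members (54.2%), in 29 of 62 other interferon-induced genes (46.8%) and in 1079 of all 27025 genes of the table (3.99%). A GAS-type core, TTCNNNGAA, occurred in 6 of 24 members (25%) and in 9.55% of all genes. The 9 letters GAAANNGAA, which lie within the ISRE-type core, were in 14 of 24 members and in 9.76% of all genes. The stretches below are shown because they carry these cores in genes whose levels are described next. Each is read along the gene's strand, and capitals mark the ISRE-type core or overlapping cores, seen as a pair of TTTC words where the match is on the opposite strand.
Isg15 (chr4:156200855-156200904, minus strand): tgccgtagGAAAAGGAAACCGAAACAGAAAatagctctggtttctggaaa
Rsad2 (chr12:26456543-26456592, minus strand): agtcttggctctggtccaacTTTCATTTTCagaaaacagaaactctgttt
Ifit1 (chr19:34640784-34640833, plus strand): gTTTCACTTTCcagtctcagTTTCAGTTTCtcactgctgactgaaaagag
Ifit3 (chr19:34583387-34583436, plus strand): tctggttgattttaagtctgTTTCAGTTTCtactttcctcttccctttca
Ifit3b (chr19:34607783-34607832, plus strand): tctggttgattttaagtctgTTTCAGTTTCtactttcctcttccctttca
Oas3 (chr5:120777705-120777754, minus strand): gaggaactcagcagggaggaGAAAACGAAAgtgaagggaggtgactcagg
Oas1a (chr5:120907526-120907559, minus strand): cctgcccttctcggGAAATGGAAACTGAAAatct
Stat2 (chr10:128270256-128270305, plus strand): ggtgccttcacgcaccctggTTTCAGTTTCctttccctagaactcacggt
Bst2 (chr8:71537567-71537616, minus strand): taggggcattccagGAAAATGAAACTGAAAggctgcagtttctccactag
Trim30a (chr7:104465200-104465249, minus strand): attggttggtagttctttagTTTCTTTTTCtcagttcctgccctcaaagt
In Isg15 and Oas1a, as in Bst2, cores overlapped and gave a run of repeated GAAA words, and in Ifit1 a pair of separate cores lay within the same stretch. The 50 bases shown for Ifit3 and Ifit3b are identical, and since these genes are near-identical copies their counts may have been split between them and are uncertain. A match describes letters in a window and is not evidence of binding.

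**Figure D1:**
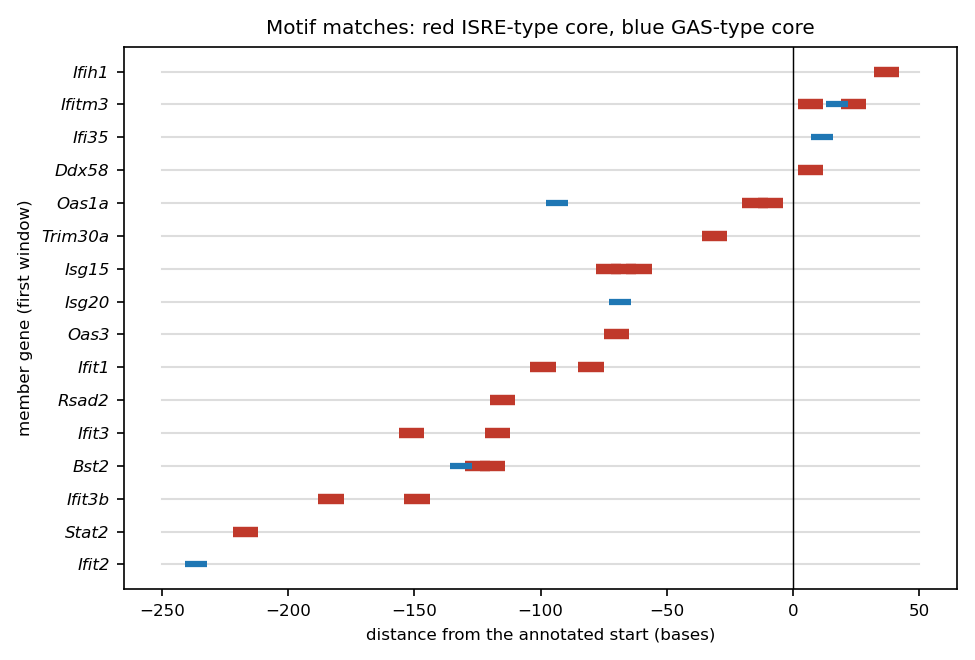
Positions of ISRE-type (red) and GAS-type (blue) cores in the promoter windows of the members that hold at least 1 of them, as distance in bases from the annotated start (vertical line). Cores are seen both far upstream, as in Stat2 and Ifit3b, and around the start, as in Oas1a, Ifitm3 and Ddx58.

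After filtering, 5659, 6187, 5919 and 5595 cells remained, with median depths of 2026, 1881, 1220 and 1339 unique molecular identifiers (UMIs, each standing for 1 captured RNA molecule). The KO libraries were thus shallower. Cells were clustered without the members and other interferon-induced genes and named from marker lists, which gave 10 classes with at least 50 cells in every library. Levels are in CPM, the UMIs of a gene scaled to 1000000 UMIs of the class in that library. Asf1a itself, checked first, was at 34.2, 30.0, 9.84 and 7.16 CPM in the tumour class and at 18.2, 18.2, 18.7 and 16.7 CPM in all other cells, so the tumour cells of the libraries labelled KO held less of it. Genes of other classes varied with the library: lung epithelium markers summed to 140, 82.7, 38.5 and 539 CPM in neutrophils, and T cell markers to 298, 353, 159 and 529 CPM. The part of such RNA in the results below was not tested. Only 1 list of barcodes, of the length of the WT IgG library, was at hand, so barcodes shared between libraries were not counted.

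Some members were expressed in every class, but not every member was: no Ifit3 UMI was counted in plasma cells. The class of highest level differed between members. Over the means of the 4 libraries, Isg15 was highest in neutrophils (636 CPM, range 388 to 800). Oasl2, Rsad2, Rtp4, Oas3 and Trim30a were also highest there. Ifitm3 reached 4271 CPM in monocytes (range 3574 to 4958), where Ifi27l2a (mean 1248 CPM) and Ifi204 (mean 203 CPM) were highest as well. Bst2, which encodes a virion-tethering protein used as a surface marker of plasmacytoid dendritic cells (pDC), averaged 3436 CPM in pDC (range 2878 to 3786). In no other class did its mean exceed 290 CPM. Stat2 and Irf9 were highest in pDC, Usp18, Herc6 and Mx1 in migratory dendritic cells (DC), Zbp1 (mean 123 CPM) and Isg20 in plasma cells, and Ddx58 and Parp14 in NK cells. Isg20 in plasma cells was at 84.3, 80.8, 94.7 and 76.9 CPM, a narrow range. Ifi44 was rare, with 16, 34, 9 and 28 UMIs over all cells.

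**Figure D2:**
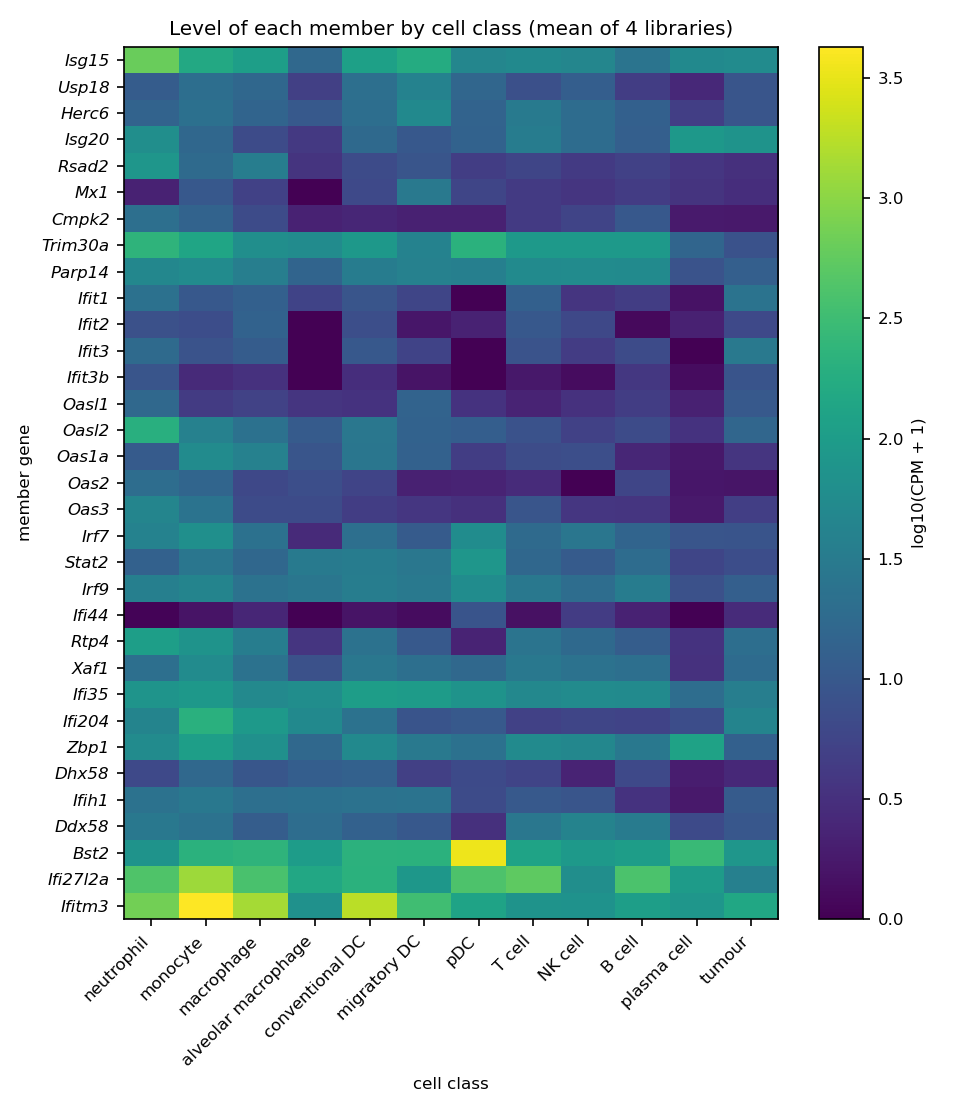
Level of the 33 measured members (rows, grouped by role) in 12 cell classes (columns), as log10(CPM + 1) of the mean over 4 libraries. Ifitm3 and Ifi27l2a are bright in monocytes, Bst2 in pDC and Isg15 in neutrophils, and each row is to be read across classes.

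Summed over the 33 measured members, the level was lowest in the KO IgG library in 9 of the 10 classes with at least 50 cells per library, the exception being plasma cells. Over all cells the sums were 2242, 2985, 1715 and 2844 CPM. In neutrophils they were 2906, 3827, 2299 and 3340 CPM, in monocytes 7690, 8596, 5499 and 6405 CPM, in macrophages 2780, 3615, 1501 and 3150 CPM, and in T cells 1280, 1650, 963 and 1410 CPM. The WT anti-PD-1 library was highest in each of these 4 classes. The sum was highest in KO anti-PD-1 in the tumour class, with 533, 788, 423 and 1061 CPM, and in plasma cells, with 718, 726, 749 and 1091 CPM. A sum is led by Ifitm3 and Ifi27l2a. Without Ifitm3, Bst2, Ifi27l2a and Isg20, the ratio of sums for KO IgG against WT IgG was 0.996 (counting interval 0.859 to 1.15) in migratory DC. In B cells it was 0.898 (0.723 to 1.11), so in neither class was KO IgG clearly lower. In the other classes except plasma cells this interval lay wholly on the lower side. Members are compared singly below. A ratio was computed where the libraries compared held at least 20 UMIs together, and a member or gene was counted as higher or lower when its CPM differed at least 1.5-fold. Because the minimum is on the sum, a member can enter through a single library, while a member scarce in both stays out. Over all cells, 11 of 33 members were lower and 0 higher in KO IgG than in WT IgG (6.76% and 10% of all genes), and 16 were higher and 0 lower in KO anti-PD-1 than in KO IgG (7.03% and 9.69% of all genes). Values over all cells mix classes whose shares differed by library, with neutrophils at 32.2%, 27.0%, 45.3% and 38.2% and T cells at 30.0%, 31.3%, 16.9% and 18.7% of cells, and the part of these shares was not tested. With the antibody in WT, 4 were higher and 0 lower (4.32% and 4.43% of all genes), and between the anti-PD-1 libraries 3 were higher and 3 lower in KO (8.97% and 9.18% of all genes). The 4 comparisons share libraries (each library enters 2 of them), so they are not independent of each other.

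**Figure D3:**
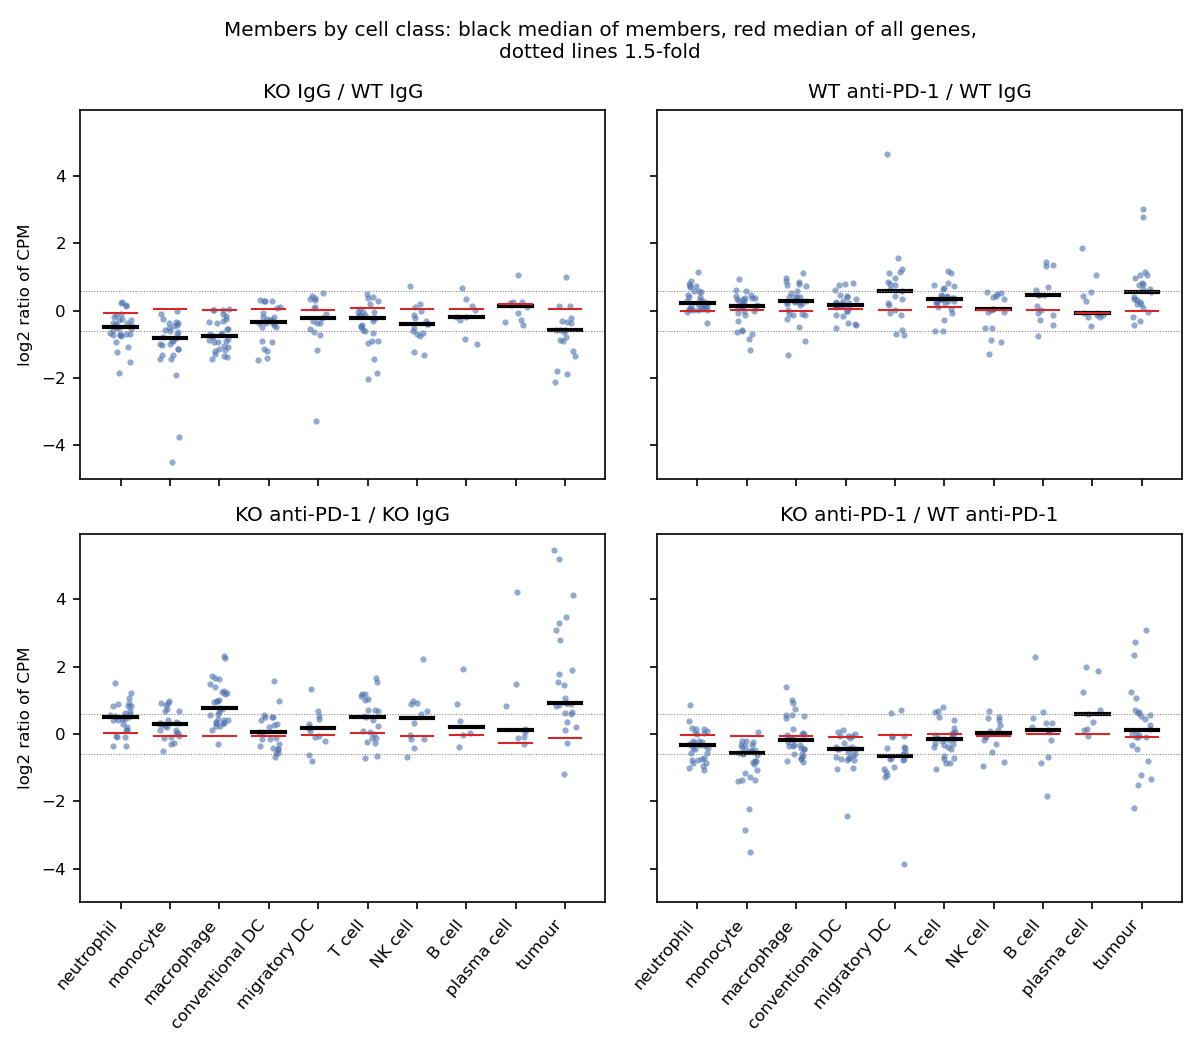
Log2 ratio of CPM for each member that passed the minimum of 20 UMIs (blue points) in 10 cell classes and 4 comparisons, with the median of the members (black) and of all genes (red) and the 1.5-fold limits (dotted). Members lie mostly below 0 for KO IgG against WT IgG and mostly above 0 for KO anti-PD-1 against KO IgG in neutrophils, monocytes, macrophages and tumour cells.

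In neutrophils, the largest class, Isg15 was at 657, 800, 388 and 697 CPM. The KO IgG library was the lowest and its interval did not touch that of WT IgG (log2 ratio -0.76, 95% interval -0.87 to -0.64). Of the 33 measured members, 31 passed the minimum for KO IgG against WT IgG, and 12 of them were lower and 0 higher, where 10.8% of all genes were lower and 6% higher. Their median log2 ratio was -0.48, beside -0.08 for all genes. Of the Ifit genes, Ifit3 was at 21.5, 23.8, 9.24 and 13.8 CPM (-1.22, -1.98 to -0.50) and Ifit2 at 9.97, 9.73, 3.46 and 4.79 CPM (-1.53, -2.81 to -0.38). Ifit3b stood at 11.2, 12.2, 3.08 and 5.86 CPM. Ifit1 differed less, at 22.7, 28.2, 15.4 and 20.8 CPM. Rsad2, which encodes viperin, an enzyme making a chain-terminating nucleotide, was at 83.4, 126, 39.3 and 69.8 CPM, with both KO libraries below both WT libraries. The most counted member, Ifitm3, was at 626, 836, 586 and 838 CPM, higher with the antibody and close between genotypes. Other members hardly varied: Trim30a was at 215, 219, 243 and 231 CPM and Oasl2 at 176, 193, 209 and 198 CPM. The OAS family as a whole had a median of 0.15 for KO IgG against WT IgG, with 1 of its 5 members lower.

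With anti-PD-1, more neutrophil members were higher than lower in both genotypes. In WT, 8 of 31 were higher and 0 lower (5.86% and 6.26% of all genes), with a median log2 ratio of 0.24. In KO, 10 of 29 were higher and 0 lower (11% and 7.35% of all genes), with a median of 0.52. Xaf1, a pro-apoptotic zinc-finger protein, was at 12.4, 27.7, 10.8 and 30.9 CPM, about level between genotypes and higher in both antibody libraries (1.17, 0.51 to 1.85 in WT; 1.52, 0.84 to 2.22 in KO). Rtp4 was at 82.6, 152, 68.1 and 121 CPM and Ifi27l2a at 348, 605, 258 and 492 CPM. Both were higher with the antibody in each genotype, and lower in KO than in WT with the same antibody. Herc6, an ISG15 ligase, was at 12.0, 18.0, 7.31 and 15.4 CPM. Between the anti-PD-1 libraries, KO held 9 of 31 members lower and 1 higher (11.4% and 9.64% of all genes), among them Ddx58 at 33.5, 37.0, 20.4 and 19.2 CPM and Parp14 at 59.8, 62.3, 31.2 and 34.1 CPM. For Ddx58 and Parp14 the values with IgG and with anti-PD-1 lay close together in each genotype.

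In monocytes many members were lower in KO than in WT with either antibody. For KO IgG against WT IgG, 19 of 29 members were lower and 0 higher (6.99% and 9.7% of all genes), with a median log2 ratio of -0.79 beside 0.05 for all genes. Isg15 was at 190, 207, 76.1 and 143 CPM. Rsad2 was at 40.4, 17.9, 3.01 and 6.90 CPM, from 52, 37, 4 and 14 UMIs, and 22 of the 52 UMIs in WT IgG came from a single cell. Ifit3 was at 17.1, 10.7, 0.754 and 1.48 CPM, from 22, 22, 1 and 3 UMIs, and Ifit1 at 17.1, 11.6, 4.52 and 2.46 CPM. The KO libraries thus held few Ifit and Rsad2 molecules with either antibody. In WT IgG and WT anti-PD-1, too, Ifit3 was found in only 10 of 240 and 13 of 415 monocytes. A single cell held 7 of the 22 Ifit3 UMIs in each of these libraries. Between the anti-PD-1 libraries, 14 of 30 members were lower in KO and 0 higher (11.9% and 7.36% of all genes), led by Ifit2 at 11.7, 11.1, 1.51 and 0.986 CPM. The abundant Ifitm3, a membrane protein that blocks virus entry, was at 4634, 4958, 3574 and 3919 CPM, and Ifi204, a DNA sensor of a family of similar genes, at 238, 250, 161 and 163 CPM. Ifi27l2a was at 1318, 1685, 852 and 1135 CPM, Bst2 at 215, 242, 162 and 204 CPM and Trim30a at 137, 177, 115 and 118 CPM. All of these abundant members were lower in KO than in WT with the same antibody.

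The antibody contrast in monocytes was mixed. In WT, 3 of 30 members were higher and 5 lower (7.41% and 5.93% of all genes), with Oas3 higher, at 21.0, 40.7, 11.3 and 18.2 CPM in the 4 libraries, and Rsad2 lower (-1.17, -1.82 to -0.54). In KO, 7 of 25 were higher and 0 lower (6.52% and 13% of all genes). The 4 measured OAS genes were all among those 7, with Oasl2 at 45.1, 57.7, 16.6 and 33.03 CPM. Rtp4, a chaperone of membrane receptors, was higher with the antibody in both genotypes, at 65.3, 98.4, 43.0 and 77.9 CPM.

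**Figure D4:**
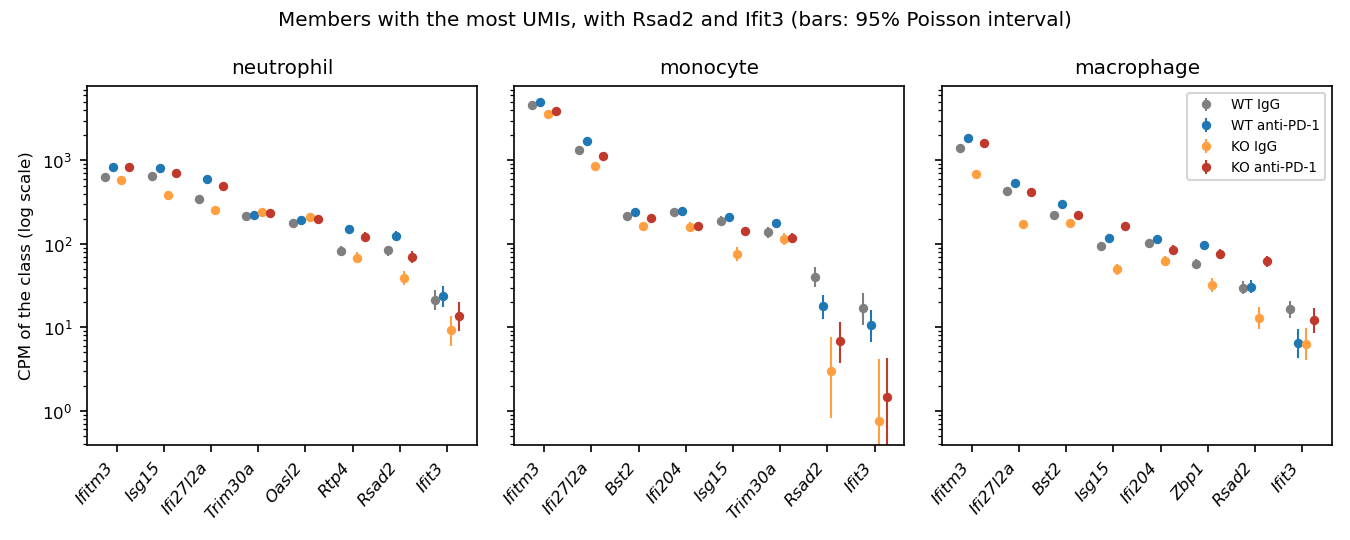
CPM on a log scale of the 6 members with the most UMIs, and of Rsad2 and Ifit3, in neutrophils, monocytes and macrophages, 1 colour per library, with 95% Poisson intervals. KO IgG (orange) is the lowest library for Isg15 and Ifi27l2a in all 3 classes, while Trim30a lies level in neutrophils.

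In macrophages the KO IgG library was again low, and the KO anti-PD-1 library was not. Ifitm3 was at 1391, 1853, 678 and 1629 CPM, Ifi27l2a at 428, 531, 175 and 413 CPM, and Zbp1, a sensor of Z-form nucleic acids, at 57.8, 96.7, 32.6 and 76.5 CPM. Bst2 was at 222, 297, 176 and 220 CPM and Ifi204 at 101, 115, 62.8 and 84.4 CPM, also lowest in KO IgG. Of the synthetases, which make the activator of RNase L, Oas2 was at 3.94, 7.79, 1.45 and 7.20 CPM and Oas3 at 4.43, 9.74, 2.04 and 6.52 CPM, both higher with the antibody in each genotype. For KO IgG against WT IgG, 19 of 31 members were lower and 0 higher (6.24% and 6.39% of all genes), with a median of -0.74. For KO anti-PD-1 against KO IgG, 19 of 31 were higher and 0 lower (6.68% and 11.3% of all genes), with a median of 0.78. In WT the antibody comparison gave 8 higher and 2 lower of 31 (5.33% and 4.63% of all genes), with a median of 0.29. Between the anti-PD-1 libraries, 4 of 31 were higher in KO and 5 lower (6% and 11.1% of all genes).

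The macrophage members higher in KO anti-PD-1 than in WT anti-PD-1 included Rsad2, at 30.0, 30.7, 13.1 and 62.1 CPM, Ifit1, at 12.3, 6.58, 11.6 and 17.2 CPM, and Ifit3, at 16.5, 6.58, 6.399 and 12.4 CPM. These transcripts sat in few cells: Rsad2 was found in 22 of 420, 27 of 443, 17 of 516 and 23 of 497 macrophages. Without the single cell that held the most of each gene in each library, Rsad2 was at 19.97, 20.3, 9.61 and 45.1 CPM, in the same order, while Ifit3 was at 12.1, 4.39, 1.75 and 6.53 CPM. Isg15 was at 94.96, 117, 49.7 and 163 CPM, and without such a cell at 79.3, 108, 41.9 and 138 CPM. By cluster, the antibody comparison in KO had a median of 1.22 in macrophage cluster 10, led by Arg1 and Ccl24, beside -0.056 for all genes. In cluster 5, led by Gpnmb and C1qc, it was 0.24, beside -0.074 for all genes.

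DC subsets take up and present antigen, and some of their members were lower in the KO libraries too. In conventional DC, 6 of 24 members were lower and 0 higher in KO IgG than in WT IgG (7.44% and 8.38% of all genes), with a median of -0.32. In KO anti-PD-1, 11 of 27 were lower and 0 higher than in WT anti-PD-1 (15% and 7.61% of all genes), with a median of -0.44, among them Ifi204 at 24.9, 29.1, 21.8 and 14.6 CPM and Ifit2 at 7.20, 12.7, 3.63 and 2.33 CPM. Ifit1 there had 15, 27, 5 and 12 UMIs. With the antibody, 4 of 27 were higher and 0 lower in WT (8.22% and 6.72% of all genes), and 2 of 23 were higher and 1 lower in KO (7.01% and 13.3% of all genes). Zbp1 there was at 43.2, 73.6, 23.0 and 68.3 CPM, higher with the antibody in both genotypes. Ifitm3 was at 1840, 1847, 1433 and 2021 CPM, Ifi27l2a at 208, 240, 155 and 229 CPM and Bst2 at 205, 281, 169 and 207 CPM, each lowest in KO IgG. Isg15 was at 139, 137, 74.9 and 100.3 CPM, with both KO libraries below both WT libraries. Herc6, at 30.5, 21.2, 13.9 and 12.8 CPM, and Isg20, at 23.3, 17.5, 10.3 and 14.6 CPM, had the same order of genotypes. Oasl2 was at 36.6, 28.6, 13.9 and 27.4 CPM, while Ifi35, which forms a complex with another interferon-induced protein, was nearly level at 101, 112, 90.0 and 109 CPM. Trim30a was at 91.4, 97.5, 87.0 and 63.6 CPM, lowest in KO anti-PD-1. In migratory DC, 10 of 21 members were higher and 2 lower with anti-PD-1 in WT (8.33% and 9.83% of all genes), with Isg15 at 116, 273, 147 and 139 CPM, so WT anti-PD-1 alone stood apart. There 11 of 20 members were lower and 2 higher in KO anti-PD-1 than in WT anti-PD-1 (13.7% and 11.4% of all genes), with a median of -0.65. For KO IgG against WT IgG, 4 of 17 were lower and 0 higher (10.4% and 12.3% of all genes), and for KO anti-PD-1 against KO IgG, 2 of 13 were higher and 2 lower (11.6% and 15.2% of all genes). Usp18, the ISG15 protease that also damps interferon receptor signalling, was at 39.7, 59.2, 17.6 and 44.6 CPM there. Mx1, an antiviral GTPase, was at 24.4, 38.6, 30.7 and 17.8 CPM, Ifih1 at 20.3, 34.7, 21.96 and 14.3 CPM and Herc6 at 43.7, 75.9, 46.1 and 44.6 CPM, all highest in WT anti-PD-1. Irf7 rested on few counts, with 1, 20, 5 and 1 UMIs, as did Rtp4, with 6, 14, 1 and 6 UMIs, and Oasl1, with 21, 16, 1 and 5 UMIs. Irf7, Rtp4, Oasl1 and Isg20, the last with 3, 14, 2 and 6 UMIs, were among the members lower between the anti-PD-1 libraries. They reached the minimum there mostly through WT anti-PD-1. Irf7 and Rtp4 likewise entered the antibody comparison in WT mostly through that library. Ifitm3 was at 366, 369, 222 and 356 CPM and Bst2 at 219, 256, 169 and 192 CPM, both lowest in KO IgG. Ifi27l2a was at 105, 63.0, 68.1 and 98.0 CPM and Ifi35 at 73.2, 82.3, 98.8 and 135 CPM. A single cell held 13.2% of the UMIs of the 29 less abundant members in that WT anti-PD-1 sample of 132 migratory DC. In pDC, 33 to 66 cells per library, the summed level was 5018, 5351, 3662 and 4637 CPM.

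In T cells Ifi27l2a was the most counted member, at 541, 691, 354 and 573 CPM. For KO IgG against WT IgG, 8 of 27 were lower and 0 higher (5.72% and 8.01% of all genes), with a median of -0.20. The antibody comparisons gave 7 higher and 2 lower of 29 in WT (6.69% and 3.49% of all genes) and 10 higher and 2 lower of 23 in KO (12% and 10.1% of all genes). For KO anti-PD-1 against WT anti-PD-1, 3 of 29 were higher and 6 lower (8.81% and 9.12% of all genes). Irf7, the transcription factor that amplifies interferon production, was at 11.8, 25.6, 16.6 and 13.97 CPM, so only the WT anti-PD-1 library stood higher. Ifitm3 was at 56.4, 93.0, 41.8 and 95.8 CPM. Isg15 was at 51.4, 65.4, 27.9 and 60.4 CPM and Zbp1 at 51.0, 68.9, 32.2 and 64.9 CPM, both lowest in KO IgG. Ifit1 was at 11.6, 18.4, 4.29 and 13.5 CPM, and Rsad2 had 28, 22, 3 and 13 UMIs. For KO anti-PD-1 against WT anti-PD-1, Ddx58 and Herc6 were among the lower members, at 23.8, 33.3, 28.9 and 18.5 CPM and at 32.1, 41.6, 23.6 and 24.9 CPM. Bst2, at 126, 151, 116 and 115 CPM, Trim30a, at 85.1, 101, 73.9 and 98.3 CPM, and Parp14, at 57.4, 69.8, 46.6 and 42.9 CPM, were highest in WT anti-PD-1. Oasl2 had 34, 31, 7 and 22 UMIs and Ifi204 13, 28, 3 and 11 UMIs. The T cell class is not the same mixture in each library: cluster 14, led by Cd8a and Cxcr6, made up 14.99%, 35.8%, 8.02% and 20.7% of it, and cluster 6, led by Lef1 and Dapl1, 24.7%, 11.7%, 26.3% and 3.25%. Cluster 3, led by Cd3d and Cd8b1, made up 31.2%, 24.1%, 43.6% and 32.4%, and cluster 7, led by Ikzf2 and holding Ctla4, 25.0%, 24.2%, 20.3% and 37.9%. Within cluster 14 the median was -1.08 for KO IgG against WT IgG and 0.99 for KO anti-PD-1 against KO IgG, over 14 and 9 members. In the same 2 comparisons it was -0.23 and 0.63 in cluster 3, -0.0056 and 0.054 in cluster 7, and -0.27 and -0.090 in cluster 6, the last over 3 members. All genes had medians between -0.066 and 0.20 in these comparisons of the 4 clusters.

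NK, B and plasma cells had 6 to 16 members above the minimum. In NK cells, 6 of 16 were lower and 1 higher in KO IgG than in WT IgG (8.98% and 11.9% of all genes). With the antibody 0 of 16 were higher and 3 lower in WT (9.45% and 8.15% of all genes), and 6 of 12 were higher and 1 lower in KO (8.29% and 15.7% of all genes). The KO anti-PD-1 library held 1 of 14 higher and 2 lower than WT anti-PD-1 (8.6% and 15% of all genes). Ifi27l2a in NK cells was at 49.9, 72.1, 21.4 and 101 CPM, lowest in KO IgG, while Isg15 was at 67.8, 36.0, 27.2 and 51.1 CPM, highest in WT IgG. Herc6 there was at 29.4, 12.0, 17.5 and 14.4 CPM, also highest in WT IgG. Trim30a, at 97.3, 98.8, 73.9 and 92.6 CPM, Ifitm3, at 71.7, 74.7, 50.6 and 81.4 CPM, and Ifi35, at 58.9, 57.4, 37.0 and 68.7 CPM, were lowest in KO IgG. Bst2, at 83.2, 109, 83.6 and 75.1 CPM, and Parp14, at 70.4, 49.4, 64.2 and 39.9 CPM, were not.

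In B cells 1 of 9 members was higher and 2 lower in KO IgG than in WT IgG (13.8% and 9.23% of all genes), and 2 of 13 were higher and 3 lower between the anti-PD-1 libraries (14.7% and 18.4% of all genes). With the antibody 5 of 15 were higher and 1 lower in WT (8.73% and 6.72% of all genes), and 2 of 6 were higher and 0 lower in KO (12.3% and 15.9% of all genes). Ifitm3 in B cells was at 49.5, 136, 50.3 and 191 CPM, higher with the antibody in both genotypes (log2 ratio 1.46, 0.94 to 2.01 in WT; 1.92, 1.11 to 2.81 in KO). A single B cell held 45 of the 135 Ifitm3 UMIs of WT anti-PD-1 and another 24 of the 52 UMIs of KO anti-PD-1, and without the top cell of each library the levels were 46.1, 92.0, 44.5 and 106 CPM. Ifi27l2a, the most counted member there, was at 377, 576, 314 and 319 CPM, highest in WT anti-PD-1. Irf7 and Xaf1 had 8, 26, 4 and 2 UMIs and 7, 22, 8 and 7 UMIs, and Isg15 had 16, 12, 2 and 16 UMIs. Bst2 was at 104, 95.9, 91.8 and 121 CPM, Trim30a at 68.5, 94.9, 110 and 84.4 CPM, Parp14 at 63.4, 52.5, 35.5 and 66.1 CPM and Ifi35 at 50.7, 51.5, 56.3 and 55.1 CPM, with no order shared among them.

 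In plasma cells no member was lower in any comparison, and 1 of 10, 2 of 12, 3 of 8 and 4 of 9 were higher in KO IgG against WT IgG, in WT with the antibody, in KO with the antibody and between the anti-PD-1 libraries. In the same order 19.4%, 7.73%, 6.62% and 13.2% of all genes were higher and 8.46%, 12.7%, 29.4% and 18.6% lower. Bst2 there was level, at 289, 268, 310 and 291 CPM. Isg15 was not, at 10.2, 37.3, 8.04 and 149 CPM, from 20, 54, 9 and 101 UMIs. Only 5 of the 71 plasma cells of KO anti-PD-1 held Isg15, and 50 of the 101 UMIs came from a single cell, without which the level was 76.5 CPM. Ifi27l2a was at 59.4, 54.6, 71.5 and 200 CPM there, and without the top cell KO anti-PD-1 was at 128 CPM. Ifitm3, at 75.7, 67.0, 62.5 and 111 CPM, was highest in the same library, and Zbp1, at 113, 108, 132 and 139 CPM, was nearly level. Trim30a had 15, 23, 18 and 12 UMIs.

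The tumour class held 111, 113, 218 and 133 cells. Isg15 was at 44.5, 78.6, 10.2 and 87.5 CPM and Bst2 at 53.8, 120, 31.6 and 119 CPM, each low in KO IgG and raised in both antibody libraries. Ifitm3 went the other way between genotypes, at 77.1, 115, 154 and 238 CPM. For KO IgG against WT IgG, 9 of 19 members were lower and 1 higher (14.6% and 16.4% of all genes), Ifitm3 being the 1 that was higher. With anti-PD-1, 11 of 23 were higher and 0 lower in WT (8.21% and 9.5% of all genes). Between the anti-PD-1 libraries 8 of 26 were higher in KO and 5 lower (12.2% and 17.9% of all genes), with a median of 0.12. In KO, 20 of 25 were higher with the antibody and 1 lower (9.62% and 18.1% of all genes), with a median of 0.93 beside -0.11 for all genes. Some of the 20 passed the minimum through KO anti-PD-1 alone. Ifit3 had 6 UMIs in KO IgG and 181 in KO anti-PD-1, and Irf7 4 and 27. Rsad2, with 1 and 2 UMIs, and Mx1, with 2 and 2, did not enter, so this count and median partly reflect the filter. Few cells carried many of the members' molecules. For the members other than Ifitm3, Bst2, Ifi27l2a and Isg20, the 7 richest of the 133 KO anti-PD-1 cells held 62.3% of the UMIs. A single cell held 22.9%. In KO IgG the 11 richest of 218 cells held 31.1%, and a single cell 7.41%. Zbp1 was at 7.77, 15.3, 2.11 and 23.5 CPM and Irf7 at 7.25, 8.73, 1.41 and 13.8 CPM. Ifih1, at 16.1, 14.2, 7.03 and 3.07 CPM, was the member that was lower. Oasl2 was at 18.1, 20.7, 5.27 and 15.4 CPM and Isg20 at 69.9, 87.9, 44.98 and 86.0 CPM, both lowest in KO IgG. Ifi27l2a was lower in both KO libraries, at 56.4, 45.9, 22.5 and 26.1 CPM, and Ifi204 was at 37.3, 36.0, 41.1 and 52.7 CPM. Trim30a had 4, 31, 9 and 13 UMIs, of which a single cell held 12 in WT anti-PD-1. Neutrophil markers summed to 1211, 849, 650 and 696 CPM in the tumour class, and their part in these values was not tested.

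The Ifit genes of the tumour class came from very few cells. Ifit3 was at 2.59, 18.0, 2.11 and 92.6 CPM and Ifit1 at 5.18, 8.73, 4.22 and 73.7 CPM. In KO anti-PD-1, 3 of the 133 cells held 337 of the 375 UMIs of Ifit1, Ifit3 and Ifit3b (89.9%). Without its top cell Ifit1 there was at 30.1 CPM and Ifit3 at 52.1 CPM. Ifit3b had 2, 7, 2 and 50 UMIs, of which a single cell held 33 in KO anti-PD-1. Without the top cell of each library Isg15 was at 39.1, 67.2, 8.11 and 74.6 CPM, in the same order as with it. Macrophage markers in the tumour class summed to 522, 408, 258 and 1048 CPM, so they were also highest in KO anti-PD-1; their part in these values was not tested. The tumour class was not the same mixture either: the subcluster led by Lgals2, Krt19 and Rbp4 held 36, 25, 1 and 12 of its cells.

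Within classes the response was uneven from cell to cell. To compare cells of unequal depth each was thinned to 500 UMIs, and cells with at least 3 UMIs of the 29 measured members other than Ifitm3, Bst2, Ifi27l2a and Isg20 were counted. They made up 10.1%, 13.9%, 6.56% and 11.4% of neutrophils (exact binomial intervals 8.76 to 11.6, 12.3 to 15.7, 5.65 to 7.56 and 10.1 to 12.8). Unthinned shares were 26.2%, 31.9%, 14.9% and 19.7%, so the KO anti-PD-1 library stood below WT IgG before thinning and level with it after. In B cells the thinned shares were 0.248%, 0.735%, 0.833% and 1.99% of 403, 544, 240 and 151 cells, so each rested on very few cells. Median depths were 1614, 1499, 1041 and 1394 UMIs in B cells against 1258, 1129, 892 and 770 in neutrophils. In monocytes the thinned shares were 6.25%, 10.4%, 2.40% and 3.31%, and unthinned 73.8%, 83.1%, 52.1% and 53.7%. Both KO libraries lay below both WT libraries. The 5% of neutrophils richest in these members held 37.7%, 34.4%, 34.1% and 32.1% of their UMIs.

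**Figure D5:**
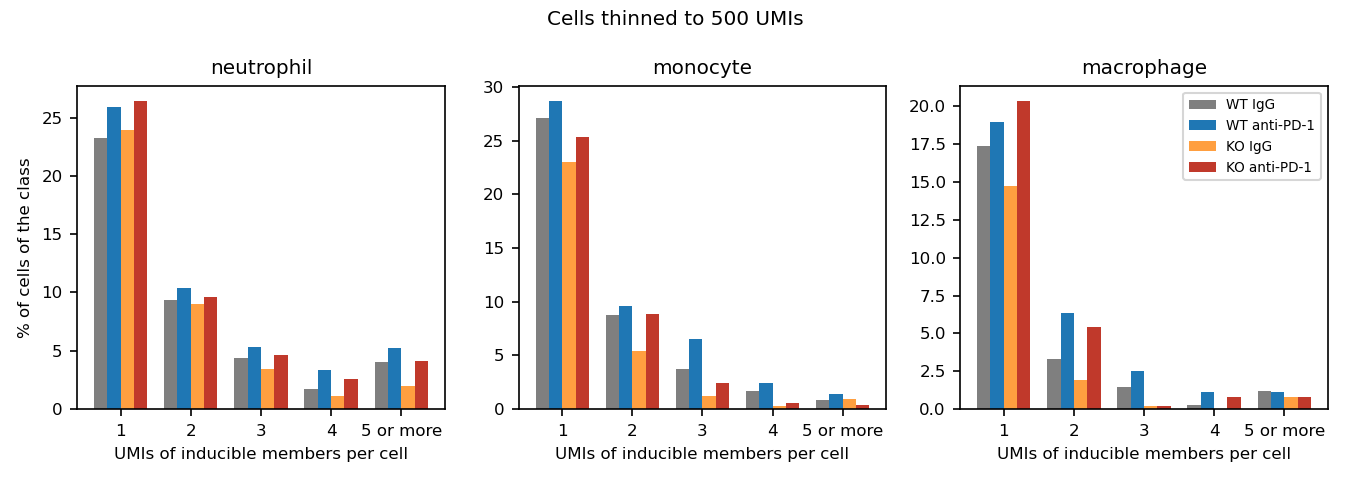
Share of neutrophils, monocytes and macrophages with 1 to 5 or more UMIs of the 29 less abundant members after thinning each cell to 500 UMIs, 1 colour per library. In neutrophils the bars from 3 UMIs upward are lowest in KO IgG, and in monocytes most cells have 1 or no such UMI.

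Members were high together in the same cells. Rsad2 was detected in 102, 115, 61 and 79 neutrophils (5.60%, 6.87%, 2.27% and 3.70%). In B cells, whose depth was greater, the shares were 0.248%, 0.184%, 0.417% and 1.99%, from only 1, 1, 1 and 3 cells. In the neutrophils with Rsad2 the other members that passed the minimum had a median log2 ratio of 2.40, 2.09, 2.14 and 2.03 over neutrophils without an Rsad2 UMI, against -0.07, -0.05, 0.45 and 0.12 for all genes. At least 1.5-fold higher were 29 of 29, 28 of 29, 24 of 25 and 25 of 26 members, while 17.9%, 17.3%, 45.4% and 29.8% of all genes were. Macrophages with Rsad2 had a like pattern in the 3 libraries with at least 20 such cells, with medians of 2.19 in WT IgG, 1.34 in WT anti-PD-1 and 2.21 in KO anti-PD-1. Monocytes of WT anti-PD-1 had a median of 1.39, beside 0.01 for all genes. T cells of WT IgG had 2.49, but there all genes had 0.73 and 54.7% of them were at least 1.5-fold higher.

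By neutrophil cluster, KO IgG against WT IgG had a median of -1.12 in cluster 1, whose leading genes include G0s2, Cxcl2 and Cxcl3, beside -0.039 for all genes. It was -0.51 in cluster 2, led by S100a8 and holding Siglecf, and -0.18 in cluster 0, led by Retnlg. KO anti-PD-1 against KO IgG was 1.15, 0.34 and 0.23 in the same order. The difference between clusters was not tested. Cluster 0 made up 36.4%, 42.0%, 48.8% and 56.8% of neutrophils.

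The genes upstream of the members were mostly unlike them. No UMI of any of the Ifna genes listed, nor of Ifne, Ifnk, Ifnl2 or Ifnl3, was counted in kept cells, and Ifnb1 had 0, 5, 1 and 0 UMIs, too few to compare libraries. Receptor genes were present, with Ifnar1 at 51.1, 52.9, 41.4 and 36.7 CPM over all cells and Ifnar2 at 63.6, 67.0, 55.2 and 60.1 CPM. Of the 52 genes of the pathway list, 31 passed the minimum over all cells, and for KO IgG against WT IgG 0 were higher and 2 lower (10% and 6.76% of all genes), with a median of -0.13. Ifng, the gene of interferon gamma, was at 16.4, 21.2, 3.601 and 16.2 CPM, so it was also lowest in KO IgG, the library with the smallest share of T cells, and its part in the members' levels was not tested.

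Another 71 interferon-induced genes outside the members had medians of the same sign as the members in these classes. In macrophages, 31 of 66 were lower in KO IgG than in WT IgG and 1 higher (6.24% and 6.39% of all genes). Their median was -0.55, beside 0.03 for all genes. For KO anti-PD-1 against KO IgG, 37 of 64 were higher and 1 lower (6.68% and 11.3% of all genes). Their median was 0.69, beside -0.06 for all genes. In neutrophils the medians were -0.43, over 58 genes, and 0.49, over 57 genes, beside -0.08 and 0.03 for all genes. In T cells they were -0.10 and 0.18, over 64 and 60 genes, beside 0.08 and 0.03 for all genes.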

How the data were processed

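The authors deposited 1 matrix of counts of UMIs per gene and cell for each of 4 libraries. These are raw counts, and per the file headers the software was Cell Ranger 3.0.0. Besides bcl2fastq and Cell Ranger, a human build is listed in the submitters' processing notes, while all 31053 deposited gene identifiers are mouse ones, so the build used is not established and no coordinates are taken from these files. Promoter letters and coordinates come from RefSeq, GRCm38.p6. Total counts were 22506737, 22369904, 17578188 and 16078095 UMIs, of which the members held 49851, 65824, 29399 and 45139.

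Cells with under 200 genes or over 10% mitochondrial UMIs were removed, and those with a Scrublet score above 0.25, a limit taken from earlier processing of these data because the automatic limit called 75, 98, 3 and 0 doublets. This removed 86, 98, 104 and 82 cells. Clustering (scanpy 1.11.5, 2000 variable genes without 104 interferon genes, 30 components, 15 neighbours, Leiden resolution 1) gave 25 clusters, named from 20 marker lists. Names were rebuilt here and may differ from those of the study. Clusters of conventional DC were named jointly and fibroblast-like and lung epithelium-like subclusters were taken out of the tumour class, both decided after the clusters were seen. UMIs were summed per class and library. CPM carry exact Poisson intervals and ratios exact conditional ones, both at 95%, and a ratio against a count of 0 used a floor of 3 UMIs in that library. The ratios and intervals were run on simulated Poisson counts with neutrophil gene means. That simulation holds no clumping of counts in single cells, so it cannot show how the intervals perform where few cells carry a gene.

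Members with values in each library are, per class, the 6 with the most UMIs and, per comparison, up to 3 with the largest ratio whose interval excludes 1, with counts in place of CPM for some rare ones. Other members with values were chosen after their values were seen. The members and all gene lists were chosen with earlier results of these data known. Alternatives were other scalings, minimums and fold limits, thinning, means over cells, other clusterings and, added after seeing the data, single clusters.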

Additional observations from a re-analysis of the deposited data

Results flagged for a closer look

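Values are listed here where 2 groups had opposite directions under the same contrast and both counting intervals excluded 0. Only neutrophils, monocytes, macrophages, T cells and tumour cells were searched. With 1 library per group the difference between the groups was not tested in any of them. In macrophages, Isg15 was lower in KO than in WT under IgG (log2 ratio -0.93, 95% interval -1.20 to -0.67) and higher under anti-PD-1 (0.48, 0.29 to 0.66). Rsad2 in macrophages was lower in KO under IgG (-1.20, -1.72 to -0.69) and higher under anti-PD-1 (1.02, 0.68 to 1.36). Ifit3 in macrophages was lower in KO under IgG (-1.37, from 22 and 67 UMIs) and higher under anti-PD-1 (0.91, from 36 and 27 UMIs). By antibody, Ifit3 was lower with anti-PD-1 in WT (-1.33) and higher in KO (0.95). The cell with the most Ifit3 held 26.9%, 33.3%, 72.7% and 47.2% of these UMIs in the 2 WT libraries (IgG, then anti-PD-1) and the 2 KO libraries. In T cells, Ddx58 was higher with anti-PD-1 in WT (0.48, 0.12 to 0.84) and lower in KO (-0.65, -1.29 to -0.02).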

How the results depend on the processing

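No paired analysis was possible because each group is 1 library and the labels give no replicate numbers. Depth limits the less abundant members: in NK, B and plasma cells fewer than 17 members passed the minimum, and thinned values of the tumour class were not computed where fewer than 3 members passed it. Of 252 alternative medians, 242 kept their sign and moved by less than 1.5-fold and by less than the median counting interval of the members, a wide tolerance under which a median of 0.24 in macrophage cluster 5 counts as kept beside 0.78 for the class (KO anti-PD-1 against KO IgG), and -0.18 in neutrophil cluster 0 beside -0.48 (KO IgG against WT IgG). Kept within 1.5-fold, or for sums and shares within the counting interval, were 37 of 60 summed ratios, 105 of 129 counts of higher members, 87 of 107 counts of lower members and 16 of 20 ratios of shares; the cause was not tested for the others. TMM or median-of-ratios scaling shifted the median of all genes by more than 0.1 in 4 class comparisons (-0.11 for T cells, KO IgG against WT IgG).

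In the tumour class, KO anti-PD-1 against WT anti-PD-1, the median of 0.12 became -0.0101 with no minimum and -0.0351 without the cell with the most member UMIs. In T cell cluster 6 alone it was -0.0898 for KO anti-PD-1 against KO IgG, over 3 members, and -0.83 for KO anti-PD-1 against WT anti-PD-1, over 10 members. That cluster held only 34 cells in KO anti-PD-1, and 21.2% of all genes were higher and 21.4% lower there than in WT anti-PD-1. In T cell cluster 14 alone the median was -1.08 for KO IgG against WT IgG, -0.0243 for WT anti-PD-1 against WT IgG and 0.0444 for KO anti-PD-1 against WT anti-PD-1. In neutrophil cluster 1 alone it was -1.12 for KO IgG against WT IgG and 1.15 for KO anti-PD-1 against KO IgG. With a minimum of 50 UMIs the tumour median for KO anti-PD-1 against KO IgG was 1.77.

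At a 2-fold limit, which 1.24% to 6.63% of all genes passed in the same direction in these comparisons, members lower in KO IgG than in WT IgG numbered 4 in neutrophils, 10 in monocytes, 9 in macrophages, 3 in T cells and 5 in tumour cells. Members higher in WT anti-PD-1 than in WT IgG numbered 1, 0, 1, 2 and 5 in the same order. Members higher in KO anti-PD-1 than in KO IgG numbered 3 in neutrophils, 0 in monocytes, 12 in macrophages and 12 in tumour cells. Between the anti-PD-1 libraries, 2, 9, 0 and 1 were lower in KO in neutrophils, monocytes, macrophages and T cells, and 5 were higher in tumour cells.

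With a minimum of 50 UMIs (3.29% to 9.38% of all genes), the counts lower in KO IgG than in WT IgG were 7 in neutrophils, 10 in monocytes and 4 in T cells. Counts higher with anti-PD-1 were 4 in T cells and 5 in tumour cells of WT, and 6 in T cells and 11 in tumour cells of KO, and 5 were higher in KO anti-PD-1 than in WT anti-PD-1 in tumour cells. With no minimum (17.1% to 22.1% of all genes), 12 members were higher in monocytes and 16 in T cells for KO anti-PD-1 against KO IgG, and in tumour cells 17 were lower in KO IgG than in WT IgG and 17 higher in WT anti-PD-1 than in WT IgG. Thinned to 500 UMIs per cell (7.69% to 15.4% of all genes), 5, 4 and 5 members were lower in KO IgG than in WT IgG in monocytes, macrophages and T cells. Thinning left 3 higher in WT anti-PD-1 macrophages, 4 and 7 higher in KO anti-PD-1 than in KO IgG in monocytes and macrophages, and 7 and 3 lower in KO anti-PD-1 than in WT anti-PD-1. A changed minimum or thinning alters how many members enter, and those numbers are not given here. Each share of all genes in this section is a range over comparisons. Whether a lower count than in the main results came from fewer members entering was not tested.

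With interferon genes in the clustering (7.14% to 13.4% of all genes), 9 monocyte members were lower in KO anti-PD-1 than in WT anti-PD-1 and 12 macrophage members higher in KO anti-PD-1 than in KO IgG. At resolution 2 (8.89% to 13.6% of all genes), 9 monocyte members were lower between the anti-PD-1 libraries and 1 was higher in WT anti-PD-1 than in WT IgG; with means over cells that count was 6 (10.5% of all genes).

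The log2 ratio of the summed level without Ifitm3, Bst2, Ifi27l2a and Isg20 was, for KO IgG against WT IgG, -0.39 in neutrophils, -0.73 in monocytes, -0.64 in macrophages, -0.31 in T cells and -0.69 in tumour cells. It was 0.30 in neutrophils and 0.34 in macrophages for WT anti-PD-1 against WT IgG. For KO anti-PD-1 against KO IgG it was 0.47 in neutrophils, 0.33 in monocytes, 0.91 in macrophages and 1.79 in tumour cells, and between the anti-PD-1 libraries -0.58 in monocytes and -0.0775 in macrophages. With means over cells, the summed ratio was -0.41 in monocytes and -0.51 in tumour cells for KO IgG against WT IgG. It was 0.22 in monocytes and 0.29 in macrophages for WT anti-PD-1 against WT IgG, and 0.95 in macrophages and 1.13 in tumour cells for KO anti-PD-1 against KO IgG. Between the anti-PD-1 libraries it was -0.25 in macrophages, -0.16 in T cells and 0.15 in tumour cells. Without the tumour cell with the most member UMIs, KO anti-PD-1 against KO IgG was 1.14.

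The ratio of the neutrophil shares was 0.486 for KO IgG against WT IgG at a limit of 5 UMIs per cell and 1.36 for KO anti-PD-1 against KO IgG at 2. The monocyte ratio between the anti-PD-1 libraries was 0.615 when thinned to 1000 UMIs and 0.607 at a limit of 2.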
